A study of Mus musculus with 2 samples.

Results

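The genes described here carry the first steps of T cell receptor signalling: the kinases and adaptors that act at the receptor, the enzymes they switch on, and the phosphatases and other brakes that hold them back. The rule is a list of 43 gene symbols and uses no measured value, but the list was proposed with earlier results of these data known. All 43 symbols were found, each under 1 identifier, among the 55536 genes of the annotation, of which 22028 are protein-coding.

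The material was polyadenylated RNA of regulatory T cells in the activated state, a CD4+ T cell type that restrains immune responses. The cells came from an adult male mouse aged 4 months of the strain Foxp3CreERT2 x Rosa26YFP. By their names these alleles place an inducible Cre recombinase under the control of Foxp3 and a yellow fluorescent reporter in the Rosa26 locus, and the labels name bone marrow as the origin of the cells. There was 1 group, with technical replicates 1 and 2 (library 1 and library 2 here) of a single biological replicate, so no condition could be compared. All means and SDs below are over these 2 libraries (n = 2), so they show technical spread and not the spread between animals. The depth was 15076048 estimated gene reads in library 1 and 14635787 in library 2.

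The cells carried T cell and regulatory T cell markers, as in their label, and no marker was chosen to check the activated state. The regulatory T cell marker Foxp3 stood at 23.8 TPM in library 1 and 20.9 TPM in library 2, and the other 3 markers of this type (Il2ra, Ctla4 and Ikzf2) all exceeded 200 TPM in both. TPM scales the estimated reads of a gene by its length and by the sum over the library, so that levels can be compared between genes. All 6 T cell markers exceeded 100 TPM. The 19 markers of other cell types summed to 18.4 TPM in library 1 and 25.5 TPM in library 2, with Cd8b1 the highest at 12.4 ± 3.44 TPM, and markers without reads included Cd14, Ncr1, S100a9 and Ppbp.

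When the T cell receptor binds its ligand, the kinase Lck phosphorylates the receptor chains, Zap70 docks on them, and Zap70 in turn phosphorylates the adaptors Lat and SLP-76 (the product of Lcp2). Phospholipase C gamma 1, Vav1 and Ras activators assemble on these adaptors and pass the signal to calcium, actin and the MAP kinases. Csk, phosphatases such as those made from Ptpn22 and Ptpn6, ubiquitin-binding proteins, inhibitory adaptors, lipid kinases and Ras GTPase activators oppose these steps. Regulatory T cells depend on signals from this receptor for their suppressive function.

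Every member was expressed. All 43 reached 1 TPM in both libraries, where 46.2% of all protein-coding genes did. The number at 10 TPM or more in both was 39 (29.5% of protein-coding genes), and the number at 100 TPM or more was 16 (5.25% of protein-coding genes). These shares are a description, as the list was proposed with earlier results of these data known. The median member stood at 81.5 ± 5.05 TPM, while the median of the 10171 protein-coding genes at 1 TPM or more in both libraries was 18.1 TPM. Levels spanned from Sos1 at 4.14 ± 0.113 TPM to Cd2 at 1199 ± 55.3 TPM. In such a bulk sample, a level set by fewer cells and one set by less RNA per cell cannot be told apart. The 4 members under 10 TPM in at least 1 library were Sos1, Ptpn11, Tec and Vav3.

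**Figure D1:**
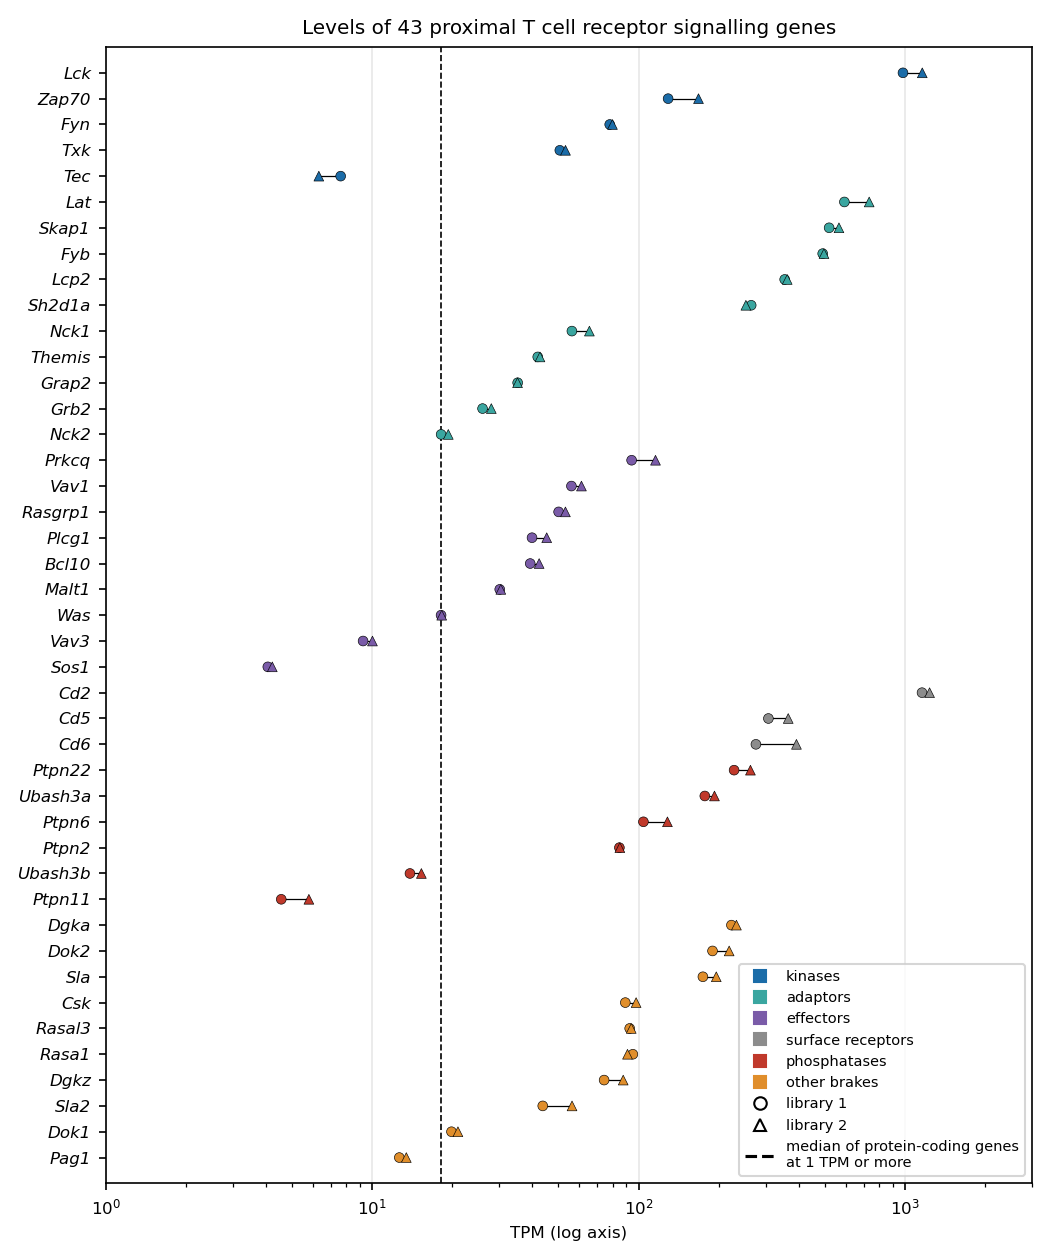
TPM of each of the 43 members (log axis) in library 1 (circles) and library 2 (triangles), grouped and coloured by role and ordered by mean within each role; the dashed line is the median of protein-coding genes at 1 TPM or more, 18.1 TPM. Cd2, Lck and Lat lead, and Sos1, Ptpn11, Tec and Vav3 lie lowest.

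Among the 5 kinases, Lck was far above the rest. Lck, the Src-family kinase that starts the cascade, stood at 984 TPM in library 1 and 1162 TPM in library 2, which ranked it 108th among protein-coding genes by mean. Zap70, the kinase that binds phosphorylated receptor chains, stood at 129 and 168 TPM. Fyn, the second Src-family kinase of T cells, stood at 78.0 and 79.8 TPM, and the ratio of Lck to Fyn was 13.6 ± 1.37. The Tec-family kinases Txk and Tec, which lie next to each other on chromosome 5, differed in the same sense: Txk stood at 50.7 and 53.2 TPM and Tec at 7.62 and 6.31 TPM, a ratio of 7.54 ± 1.26.

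Lck has 2 promoters, a proximal one that is most active in thymocytes and a distal one that serves mature T cells, and the transcripts that start at each encode the same 509 codons. Lck-202, which starts at the distal promoter, held 73.7% of the gene's TPM in library 1 and 69.7% in library 2. Lck-201, which starts 15250 bases downstream at the proximal promoter, held 6.20% and 6.69%. Of the TPM of these 2 transcripts alone, the distal one held 91.7 ± 0.709%. The distal start thus exceeded the proximal one in both libraries, by more than the spread between them. The model's own SD on the reads assigned to Lck-201 was 192 of 1615 in library 1 and 228 of 1944 in library 2. The 250 bases before each RefSeq start (GRCm38.p6, minus strand) are shown because their use differed in these cells; the distal window is chr4:129573642-129573891 and the proximal one chr4:129558373-129558622. The proximal RefSeq start lies 19 bases inside Lck-201, so that window ends with the first 19 bases of this transcript.
Lck distal promoter: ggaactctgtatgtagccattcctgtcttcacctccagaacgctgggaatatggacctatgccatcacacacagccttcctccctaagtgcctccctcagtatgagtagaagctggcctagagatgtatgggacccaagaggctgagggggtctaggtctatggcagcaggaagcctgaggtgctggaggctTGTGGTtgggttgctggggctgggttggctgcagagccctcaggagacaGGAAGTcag
Lck proximal promoter: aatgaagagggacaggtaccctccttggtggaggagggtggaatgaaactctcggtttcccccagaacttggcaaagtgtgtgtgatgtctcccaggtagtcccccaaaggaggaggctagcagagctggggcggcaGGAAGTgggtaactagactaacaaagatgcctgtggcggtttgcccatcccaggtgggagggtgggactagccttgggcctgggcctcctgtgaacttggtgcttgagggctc
Capitals mark matches, on either strand, to TGTGGT, a core that RUNX factors bind, and to GGAAGT, a core that ETS factors bind; the matches do not overlap each other. The E-box CANNTG was also searched, and its matches are not marked. The distal window held 1 match to TGTGGT, 1 to GGAAGT and 0 to CANNTG, and the proximal window held 0, 1 and 1. Across 32536 promoter windows of this length, 14.0% held TGTGGT, 19.8% held GGAAGT and 66.2% held CANNTG. A match describes the letters and is not evidence of a site in use.

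Fyn transcripts differ by a pair of alternative exons that encode the link between the SH2 and kinase domains and the start of the kinase domain. The form called FynT, typical of blood cells, uses the downstream exon, and FynB, typical of brain, uses the upstream one. Fyn-201 (534 codons, the FynT exon) held 38.7% of the gene's TPM in library 1 and 43.3% in library 2. Fyn-202 (537 codons, the FynB exon) held 14.8% and 12.9%, and Fyn-206 (482 codons), which lacks both exons, held 25.9% and 23.6%. Of the TPM of Fyn-201 and Fyn-202 together, the FynT transcript held 74.7 ± 3.36%. FynT thus led in both libraries without being the sole form. The 2 exons are shown in capitals (mm10, plus strand; Fyn-201 at chr10:39529919-39530074, Fyn-202 at chr10:39529437-39529601), with 15 bases of the shared neighbouring exons on each side in lower case.
Fyn-201 exon: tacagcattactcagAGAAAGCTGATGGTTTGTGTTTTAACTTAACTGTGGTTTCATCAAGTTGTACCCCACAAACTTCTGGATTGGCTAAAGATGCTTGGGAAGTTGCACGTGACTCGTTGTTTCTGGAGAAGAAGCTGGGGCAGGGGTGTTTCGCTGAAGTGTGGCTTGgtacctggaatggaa
Fyn-202 exon: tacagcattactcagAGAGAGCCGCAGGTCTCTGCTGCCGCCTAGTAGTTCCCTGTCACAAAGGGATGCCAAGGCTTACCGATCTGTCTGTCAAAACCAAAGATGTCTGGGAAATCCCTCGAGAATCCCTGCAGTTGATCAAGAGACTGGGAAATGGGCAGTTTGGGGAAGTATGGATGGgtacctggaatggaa
The exons are 156 and 165 bases long, and in a global alignment of 168 columns 93 were identical (55.4%).

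The 10 adaptors fell into a high and a low set of equal size. Lat, the membrane scaffold that Zap70 phosphorylates, stood at 593 TPM in library 1 and 734 TPM in library 2. Skap1 (519 and 566 TPM) and Fyb (491 and 497 TPM), which encode partners in the link from the receptor to integrins, came next. Lcp2, the gene of SLP-76, stood at 354 and 362 TPM, and Sh2d1a, the gene of the SLAM-receptor adaptor SAP, at 265 and 253 TPM. These 5 were the adaptors at 100 TPM or more in both libraries. The order of Fyb over Lcp2 depended on the counts and lengths used. With protein-coding transcripts only, Fyb stood at 379 TPM and Lcp2 at 268 TPM by mean. With reads divided by the length of the longest protein-coding transcript, they were near equal, at 340 and 341. By estimated reads Lcp2 (10654 and 10485) was ahead of Fyb (7973 and 7459). Nck1 (56.2 and 65.4 TPM) and Nck2 (18.2 and 19.3 TPM), which connect phosphotyrosines to actin, had a ratio of 3.24 ± 0.205. The size of that difference depended on the counts and lengths used: the log2 ratio of Nck1 to Nck2 was 1.70 by TPM, 0.87 by estimated reads and 0.18 when reads were divided by the length of the longest protein-coding transcript. With the deposited whole-number counts divided by that length it was 2.875. Themis, a regulator of thymocyte signalling, stood at 41.9 and 42.7 TPM. Grap2, which encodes the Gads protein that joins Lat to SLP-76, stood at 35.19 and 35.15 TPM. Grb2, which brings Sos proteins to Lat, stood at 25.98 and 28.02 TPM. The order of Grap2 over Grb2 (ratio 1.30 ± 0.0707) turned when reads were divided by the length of the longest protein-coding transcript (log2 ratio -0.35).

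Grb2 was represented by 2 transcripts, and the shorter led. Grb2-201 encodes the full adaptor of 217 codons, an SH2 domain between 2 SH3 domains. Grb2-204 encodes 176 codons and skips 1 exon of 123 bases (chr11:115649771-115649893, mm10, minus strand), the change that defines the form known as Grb3-3, in which the SH2 domain is incomplete. Grb2-204 held 68.4% of the gene's TPM in library 1 and 78.9% in library 2, and Grb2-201 held 31.6% and 21.1%. The reads assigned to Grb2-204 were 503 and 591, with a model SD of 42.4 and 43.1, and those assigned to Grb2-201 were 271 and 184, with a model SD of 71.1 and 51.3. By assigned reads Grb2-204 was thus ahead in both libraries by more than these SDs. Grb2-201 is 2709 bases long and Grb2-204 2333, so the 2 differ by more than the 123-base exon. Reads over the exon or its junction were not counted apart, so the share of Grb2 RNA that skips the exon was not measured directly. The skipped exon is shown in capitals with 15 bases of the exons on each side, and below it the 30 bases around the junction that replaces it, with the 3 bases on each side of the joint in capitals.
Grb2-201 exon: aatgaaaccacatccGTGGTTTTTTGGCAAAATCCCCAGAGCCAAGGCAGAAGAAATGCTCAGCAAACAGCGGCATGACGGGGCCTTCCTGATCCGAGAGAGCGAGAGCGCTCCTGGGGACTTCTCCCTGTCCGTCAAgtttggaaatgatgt
Grb2-204 junction: aatgaaaccacaTCCGTTtggaaatgatgt
The deposited whole-number table, made on an older annotation, gave Grb2 64 counts in library 1 and 59 in library 2, beside the 774 and 775 estimated reads used here. That table also holds fewer counts in all, 3478224 and 3475360 against 15076048 and 14635787 estimated gene reads. The gap for Grb2 was wider than the gap between these totals.

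The 9 effectors were the lowest role, with a median of 40.8 ± 2.23 TPM and none at 100 TPM or more in both libraries. Prkcq, the gene of protein kinase C theta, was highest, at 94.2 TPM in library 1 and 116 TPM in library 2. Vav1, a guanine nucleotide exchange factor, stood at 56.0 and 61.1 TPM, and Rasgrp1, the diacylglycerol-driven Ras activator, at 50.1 and 53.2 TPM. Plcg1, the phospholipase that makes diacylglycerol and inositol trisphosphate, stood at 39.8 and 45.2 TPM. Of the partners of the NF-kappaB-activating complex, Bcl10 stood at 39.2 and 42.4 TPM and the paracaspase gene Malt1 at 30.1 and 30.4 TPM. The gap between them depended on the transcripts and lengths counted. With protein-coding transcripts only, Bcl10 stood at 39.5 TPM and Malt1 at 10.1 TPM by mean. With reads divided by the length of the longest protein-coding transcript, the levels were 56.6 and 28.3. Was, an activator of actin nucleation, stood at 18.2 and 18.3 TPM. Sos1, the Ras exchange factor that Grb2 carries, was lowest of all members, at 4.06 and 4.22 TPM.

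Vav3, a relative of Vav1, stood at 9.25 TPM in library 1 and 10.03 TPM in library 2, and the ratio of Vav1 to Vav3 was 6.07 ± 0.0245. Its leading transcript was not the full-length one. Vav3-202, which starts 233254 bases inside the gene and encodes 287 codons, held 56.8% and 59.3% of the gene's TPM. Vav3-201, with 847 codons, held 9.30% in library 1 and 0% in library 2. Vav3-203, a retained-intron transcript, held 30.9% and 38.3%, so reads were also assigned outside these 2 coding transcripts. These shares rest on few reads: 200 and 214 for Vav3-202 and 53.0 and 0 for Vav3-201.

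The 3 surface receptors were all abundant. Cd2, an adhesion receptor that adds to receptor signals, was the highest member, at 1160 TPM in library 1 and 1238 TPM in library 2. Cd5 and Cd6, related scavenger-type receptors that lie near each other on chromosome 19 and tune signal strength, stood at 307 and 365 TPM and at 276 and 391.7 TPM. Cd5 was ahead of Cd6 in library 1 and behind it in library 2, so the pair had no stable order (ratio 1.02 ± 0.129).

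The 6 phosphatases, with which the ubiquitin-binding proteins of the Ubash3 genes are counted here, had a median of 101 ± 8.63 TPM. Ptpn22, whose product removes phosphate from the activating sites of Lck and Zap70, stood at 228 TPM in library 1 and 263 TPM in library 2. Ubash3a, a gene of T cells, stood at 177 and 193 TPM, and its more widely expressed relative Ubash3b at 13.9 and 15.3 TPM, a ratio of 12.7 ± 0.137. Ptpn6, the gene of SHP-1, stood at 104 and 128 TPM, and Ptpn11, the gene of its widespread relative SHP-2, at 4.56 and 5.79 TPM, a ratio of 22.5 ± 0.499. In both pairs the form more restricted to blood cells was thus more abundant, by far more than the libraries differed. The log2 ratio of Ubash3a to Ubash3b was 1.59 when reads were divided by the length of the longest protein-coding transcript. Ptpn2, which acts on Src-family and JAK kinases, stood at 84.8 and 85.1 TPM.

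Ptpn6 and Ptpn2 each had a leading transcript that separates known protein forms. Ptpn6-202 (595 codons), which starts inside the gene at the promoter used by blood cells, held 58.3% of the gene's TPM in library 1 and 65.2% in library 2. Ptpn6-203 and Ptpn6-201, of 597 codons each, held 16.4% and 17.9%, and 9.36% and 5.33%. Ptpn6-201 starts upstream of Ptpn6-202, and the start of Ptpn6-203 was not compared. Of these 3 transcripts together, Ptpn6-202 held 71.5 ± 3.09%. Ptpn2-201 (382 codons), the nuclear form, held 89.0% and 92.1%, and Ptpn2-203 (406 codons), the form anchored in the endoplasmic reticulum, 7.45% and 5.36%.

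**Figure D2:**
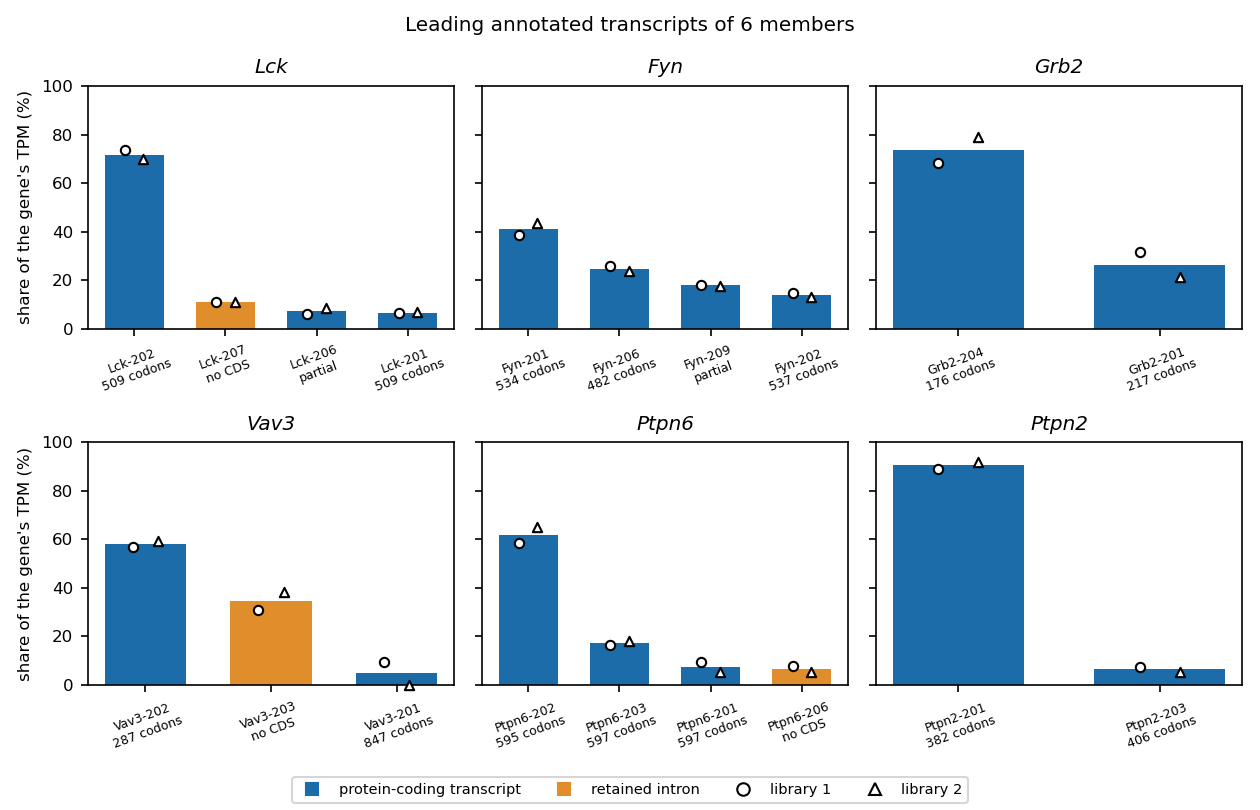
Share of the gene's TPM (%) held by the leading annotated transcripts of Lck, Fyn, Grb2, Vav3, Ptpn6 and Ptpn2; bars are means of the 2 libraries, circles library 1 and triangles library 2, and colours separate protein-coding from retained-intron transcripts. Grb2-204 (176 codons) lies above Grb2-201 (217 codons) and Vav3-202 (287 codons) above Vav3-201 (847 codons) in both libraries.

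The 10 other brakes lay between 13.0 and 228 TPM by mean. Dgka and Dgkz encode kinases that remove diacylglycerol; Dgka stood at 223 TPM in library 1 and 233 TPM in library 2, and Dgkz at 74.3 and 87.6 TPM. Dok2 (190 and 219 TPM) exceeded Dok1 (19.9 and 21 TPM), and the ratio of Dok1 to Dok2, both inhibitory adaptors, was 0.10 ± 0.0062. Sla (174 and 196 TPM) exceeded Sla2 (43.7 and 56.3 TPM), genes of SLAP proteins that lower receptor levels, with a ratio of 3.74 ± 0.363. In each of these 3 pairs 1 member led in both libraries. Csk, the kinase that holds Lck inactive, stood at 89.2 and 98.0 TPM. Its membrane anchor Pag1 was the lowest brake of this role, at 12.7 and 13.4 TPM. Rasa1 (95.2 and 90.9 TPM) and Rasal3 (92.7 and 93.9 TPM), which switch Ras off, could not be ordered, as Rasa1 was ahead in library 1 and behind in library 2 (ratio 0.998 ± 0.0421).

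The typical brake was as abundant as the typical signal-promoting gene or more so, depending on the transcripts counted. The 16 phosphatases and other brakes had a median of 91.7 ± 1.05 TPM and the 24 kinases, adaptors and effectors one of 51.8 ± 1.97 TPM. On the log2(TPM + 1) scale the difference of medians, signal-promoting minus brakes, was -0.84 in library 1 and -0.79 in library 2 (mean -0.81 ± 0.0375). The medians on this scale were 5.72 ± 0.0538 and 6.53 ± 0.0163, and that of all expressed protein-coding genes was 4.26. Counting only transcripts annotated as protein-coding brought the difference to -0.21 ± 0.117, and taking means in place of medians brought it to -0.06 ± 0.0352. Summed over genes the order was the other way: the signal-promoting genes totalled 4221 ± 327 TPM, led by Lck, Lat, Skap1, Fyb and Lcp2, and the brakes 1714 ± 121 TPM. No test was made over genes, since they are not replicates.

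In some members, most of them brakes, TPM lay mostly in transcripts not annotated as protein-coding. Across the 43 members the median share of TPM in protein-coding transcripts was 90.6%, and 82.5% across 9395 protein-coding genes with several transcripts. It was under 50% in 7 members (16.3%), where 19.3% of those 9395 genes were. Of the 7, Dgkz, Ubash3a, Rasal3, Pag1, Rasa1 and Ptpn22 were brakes and Malt1 was an effector. Dgkz had the lowest share, 6.27% in library 1 and 7.74% in library 2, or 5.72 TPM of protein-coding transcripts by mean. Its leading transcript, Dgkz-212, spans 3109 bases, is annotated as a target of nonsense-mediated decay and held 42.3% and 42.1% of TPM, with 1192 and 1321 assigned reads and a model SD of 53.1 and 57.6. In Ubash3a the share was 25.5% and 27.1%, and its leading transcript, Ubash3a-204, of type processed transcript, held 34.3% and 38.4%. The coding Ubash3a-201 of 527 codons held 7.99% and 8.63%.

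Several short transcripts weigh heavily in such TPM shares, since TPM divides by length. The leading transcript by TPM was not protein-coding in either library in 5 members, all of them brakes: Ubash3a, Dgkz, Rasal3, Pag1 and Rasa1. The same held for 13.2% of the 9395 genes. By assigned reads only Ubash3a and Dgkz remained, where 8.3% of those genes did. In Rasal3, for example, the retained-intron transcript Rasal3-208 of 492 bases held 44.5% and 41.2% of TPM on 226 and 201 reads, while Rasal3-201 of 1041 codons held 27.4% and 32.5% on 1145 and 1296 reads. In Pag1 the processed transcript Pag1-202 held 46.0% and 56.2% of TPM on 80.1 and 98.1 reads, and the coding Pag1-204 41.9% and 36.9% on 540 and 477 reads. The 2 measures thus differed most for genes with short non-coding transcripts. Ptpn22 kept a coding leader, Ptpn22-201 of 802 codons, at 44.1% and 42.9%, beside a transcript annotated for nonsense-mediated decay, Ptpn22-204, at 30.2% and 26.02%.

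**Figure D3:**
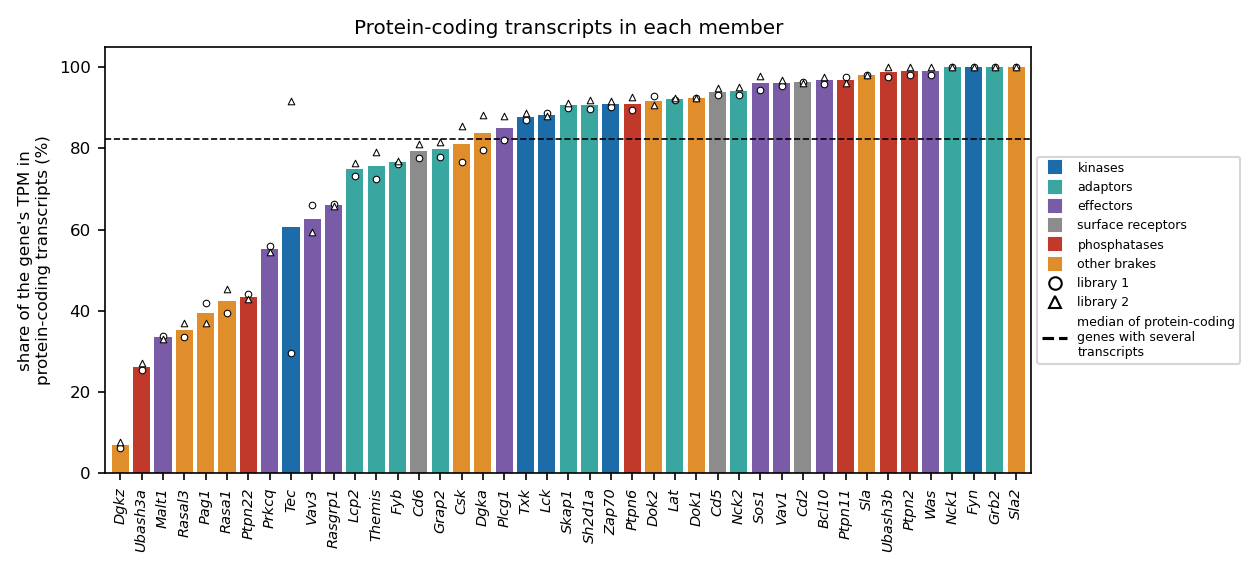
Share of each member's TPM (%) in transcripts annotated as protein-coding, ordered from lowest to highest; bars are means of the 2 libraries coloured by role, circles library 1, triangles library 2, and the dashed line the median of 9395 protein-coding genes with several transcripts, 82.5%. Dgkz and Ubash3a lie lowest, and the 2 libraries lie farthest apart for Tec.

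The leading transcript by TPM was the same in both libraries in 40 of 43 members, where it was the same in 84% of 9963 genes with several transcripts. The exceptions were Tec, Grap2 and Rasa1. Tec rested on 219 and 164 reads: Tec-205, a decay-annotated transcript, held 54.2% in library 1 and 0% in library 2, and the coding Tec-201 held 0% and 49.4%. Its transcript use could therefore not be read at this depth. In Grap2 the 2 leading transcripts encode the same 322 codons and were near equal.

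Related genes used by other cell types were mostly low. Of 18 pairs of a member and a relative, the member was at least 10 times higher in both libraries in 14. Zap70 exceeded Syk, its relative in B and myeloid cells (0.480 and 0.550 TPM), 287 ± 25.7-fold. Lat exceeded Lat2 (2.86 and 3.39 TPM) 212 ± 6.64-fold. Lcp2 exceeded Blnk, the B cell counterpart of SLP-76, by a ratio of 3577 with a 95% interval from counting of 1397 to 13129, since Blnk had 2 reads in each library. These relatives were all near the limit of detection or a few TPM. Plcg2 had 2 reads in library 1 and none in library 2, where Plcg1 had 1913 and 2118, and the ratio of mean TPM was 2127 with a counting interval of 588 to 17567. Rasgrp3 had 3 and 2 reads, and the ratio of mean TPM of Rasgrp1 to Rasgrp3 was 229.6 with a counting interval of 98.3 to 707. The log2 ratio of that pair was 7.86 by TPM and 9.75 when reads were divided by the length of the longest protein-coding transcript. The B cell kinase gene Btk had 13 and 4 reads, and the ratio of mean TPM of Txk to Btk was 157 with a counting interval of 98.1 to 270.5.

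Other Src-family kinases were likewise low beside Lck. Lyn stood at 2.17 TPM in library 1 and 3.21 TPM in library 2, Fgr at 3.18 and 3.99 TPM, and Blk at 0.710 and 0.450 TPM. Lck exceeded Lyn 408 ± 64.5-fold, Fgr 300.3 ± 12.7-fold and Blk 1984 ± 847-fold. Fgr and Lyn were thus more abundant than Blk in both libraries. Sh2d1b1, a SAP relative, had no reads in either library, and Sh2d1a was at least 2463-fold higher when Sh2d1b1 is set at the level of 3 reads per library. Themis exceeded Themis2 51.3 ± 13.3-fold, Skap1 exceeded Skap2 32.4 ± 2.54-fold and Vav1 exceeded Vav2 13.4 ± 0.909-fold.

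The other 4 relatives were close to their member or above it. Prkcb, the protein kinase C gene best known from B cells, stood at 54.3 and 52.2 TPM, so Prkcq was only 1.98 ± 0.344-fold higher. Wasl, the widely expressed relative of Was, stood at 12.2 and 9.71 TPM (ratio of Was to Wasl 1.68 ± 0.275). Grap, an adaptor of the Grb2 family, stood at 129 and 165 TPM, above both Grap2 and Grb2, and the ratio of Grap2 to Grap was 0.243 ± 0.0419. Lime1, which like Pag1 encodes a membrane adaptor that can bind Csk, stood at 333 and 359 TPM, and the ratio of Pag1 to Lime1 was 0.0377 ± 0.000382. The abundant transcripts of both these families were therefore from genes outside the 43.

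**Figure D4:**
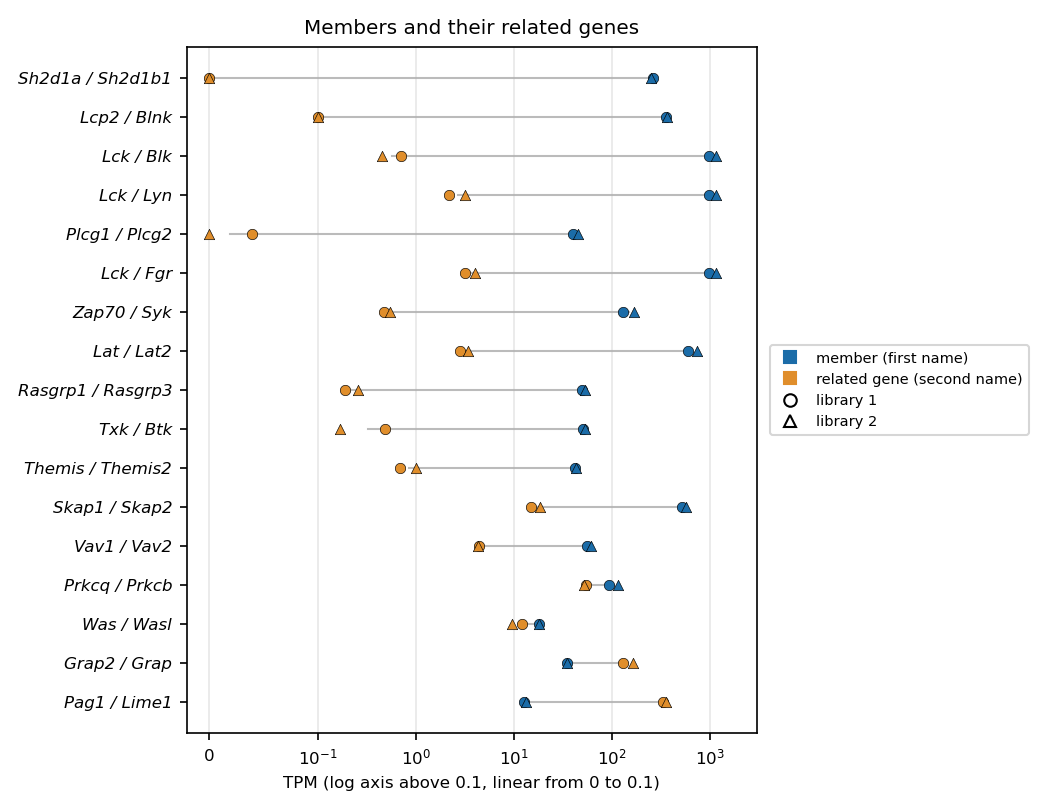
TPM of each member (blue) and its related gene (orange) in library 1 (circles) and library 2 (triangles), on an axis that is logarithmic above 0.1 TPM and linear from 0 to 0.1; grey lines join the 2 means. The member lies to the right in 15 of the 17 pairs plotted, and Grap and Lime1 lie to the right of Grap2 and Pag1.

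The wider pathway was also expressed. Of 41 further genes of the pathway, 39 reached 1 TPM in both libraries, and the exceptions were Gab2 (0.03 and 0.10 TPM) and Rasgrp4 (0.72 and 0.50 TPM). Of 25 further proximal genes the highest were Ptprc, the gene of the CD45 phosphatase that activates Lck, at 1002 ± 23.0 TPM, Rhoh, a GTPase gene needed for Zap70 recruitment, at 183 ± 9.60 TPM, and Sh2d2a, an adaptor gene, at 172 ± 26.8 TPM. The 16 genes of the Ras and MAP kinase steps had a median of 19.1 ± 0.516 TPM and none reached 100 TPM; Araf (88.9 ± 4.87 TPM), Nras (84.9 ± 0.530 TPM) and Rasa3 (78.6 ± 15.6 TPM) were highest. The 25 further proximal genes had a median of 64.8 ± 5.48 TPM, so the typical Ras and MAP kinase gene lay lower than the typical proximal gene in these libraries.

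The 2 libraries differed for many members. An exact two-sided binomial test on the estimated reads, with Benjamini-Hochberg adjustment over 17271 genes, compared the libraries by counting error alone and says nothing of a condition. It called 18 members up in library 2 (12.7% of all genes tested were) and 2 up in library 1 (11.6% were), so 20 of 43 (46.5%) where 24.3% of all genes were called. The members were deeply covered, with a median of 4031 reads over both libraries and 383 at the lowest, where the median gene tested had 305, and of the genes with 100 reads or more 30.7% were called. By role the calls took in all 3 surface receptors, 5 of 6 phosphatases, 5 of 10 other brakes, 2 of 5 kinases, 2 of 10 adaptors and 3 of 9 effectors. With DESeq2 size factors the split moved to 15 members up in library 2 (11.8% of genes) and 4 up in library 1 (12.7% of genes), namely Sh2d1a, Malt1, Tec and Fyb. A test that allows 10% variation beyond counting error (edgeR's exact test with a dispersion of 0.01) called 0 of the 43 in either direction, where it called 2.85% of genes (1.19% up in library 2 and 1.66% up in library 1), and 0 members had an unadjusted p under 0.05 in it. The deposited whole-number table, by the exact binomial test, put 5 members up in library 2 (5.39% of genes) and 0 in library 1 (4.55% of genes), from 9.95% of genes called in all. It totals 3478224 and 3475360 counts, fewer than the estimated reads, so it can detect less at the same threshold.

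Among the called members the 5 largest differences were increases in library 2, on the log2 scale of the share of reads: Cd6 by 0.39 (10273 and 13109 reads, adjusted p = 3.3e-93), Zap70 by 0.34 (3362 and 4125 reads, adjusted p = 9.1e-22), Sla2 by 0.33 (1431 and 1742 reads, adjusted p = 8.9e-09), Ptpn6 by 0.32 (2441 and 2950 reads, adjusted p = 8.6e-14) and Ptpn11 by 0.31 (316 and 381 reads, adjusted p = 0.024). The 2 called members higher in library 1 differed less: Malt1 by -0.17 (1380 and 1192 reads, adjusted p = 0.018) and Sh2d1a by -0.11 (2827 and 2535 reads, adjusted p = 0.02). Tec, also higher in library 1, differed by -0.37 but was not called (219 and 164 reads, adjusted p = 0.054). All these p-values are from the exact binomial test. On the TPM scale the log2 ratio of Malt1 was 0.01 (30.1 and 30.4 TPM), so its direction did not hold there, and that of Sh2d1a was -0.07. On the scale of read shares no called member differed by more than 1.31-fold. Markers of other cell types also differed between the libraries: of 19 such markers 9 were tested, and by the same test 3 were called, all higher in library 2. These were the myeloid markers Lyz2 (10 and 42 reads, adjusted p = 8.6e-05) and Csf1r (2 and 12 reads, adjusted p = 0.047) and the cytotoxic T cell marker Cd8b1 (177 and 248 reads, adjusted p = 0.0019). Their part in the differences between the libraries was not tested.

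GC content moved with these differences, and its part in them was not tested beyond 1 alternative. The members higher in library 2 had a median GC content of 54.2% in their longest protein-coding transcript, the 2 higher in library 1 one of 43.2%, and the 23 not called one of 47.4%. Across the 43 members the log2 ratio rose with GC content (Spearman's rho 0.63, a description, as the members share both libraries), and across 9677 protein-coding genes with 100 reads or more rho was 0.24. When the expected share of each gene was taken from genes of similar GC content (20 bins), 14 members were up in library 2 (12% of genes) and 2 in library 1 (11.1% of genes), and 14 of the 20 calls were kept. The 2 in library 1 were then Tec and Malt1. Sh2d1a, Ptpn11, Ubash3b, Csk, Dok2 and Cd2 were no longer called, and Skap1 was called in addition.

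**Figure D5:**
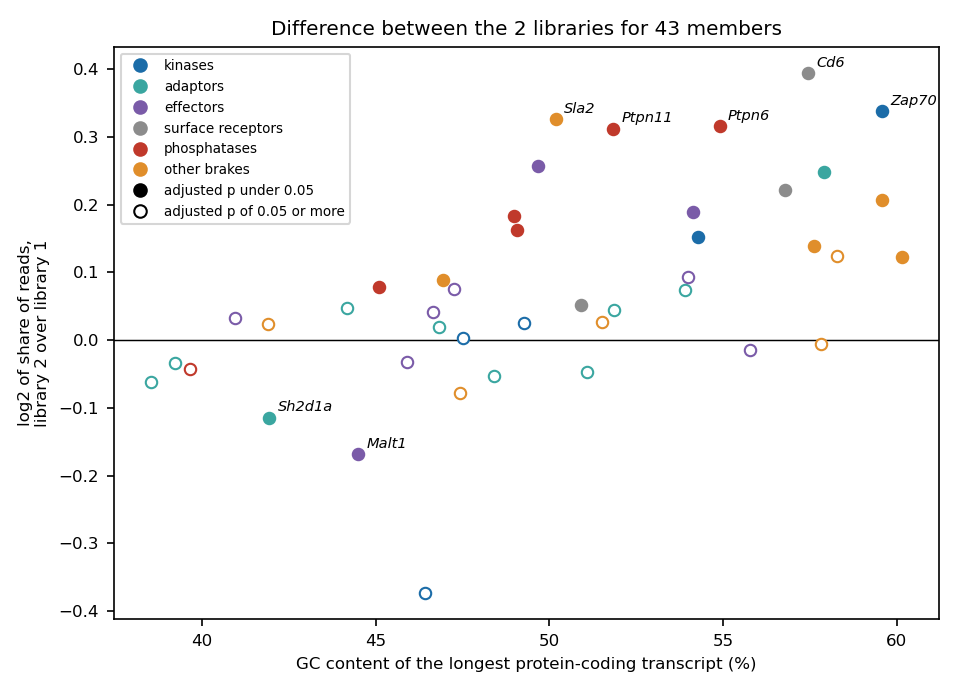
Log2 ratio of the share of reads, library 2 over library 1, against the GC content (%) of the longest protein-coding transcript for the 43 members, coloured by role; filled points had an adjusted p under 0.05 in the exact binomial test. The called members with the largest ratios, Cd6, Zap70, Sla2, Ptpn6 and Ptpn11, all have a GC content above 50%, and Sh2d1a and Malt1 lie under 45%.

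Some members share exon bases with another gene, and no source used here says whether the counting used strand. The partners on the opposite strand at 10 TPM or more were Ccnh with Rasa1 (107 TPM, 12 shared bases), CT485616.1 with Rasal3 (25.4 TPM, 635 bases), Gm2245 with Fyb (13.6 TPM, 319 bases) and 2010300F17Rik with Skap1 (12.6 TPM, 186 bases). On the same strand, the transcribed pseudogene Gm7666 shares 231 bases with Fyb (58.1 TPM) and the microRNA gene Mir7058 shares 75 bases with Lat (40.3 TPM). Reads in the shared bases could be assigned to either gene, so the levels of these members are uncertain to that extent. The model's own SD on the reads of the gene was small beside those reads. In libraries 1 and 2 it was 0 and 0 for Rasa1, 10.5 and 9.73 for Rasal3 and 16.0 and 17.1 for Fyb. For Skap1 it was 3.84 and 3.90, and for Lat 3.14 and 3.25. Sla2 shares 731 bases with the lower partner Rab5if (5.47 TPM, opposite strand), and its SD was 5.75 and 6.28.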

How the data were processed

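Polyadenylated RNA of 2 technical libraries was analysed. Per the file listing deposited with the samples, the gene and transcript tables were quantified on mm10 with GENCODE M21. Per the file headers the authors deposited the expected count with its posterior SD, the TPM and the FPKM. The expected count is an estimate of reads that need not be whole. For transcripts they also deposited the isoform percent of the gene's TPM. A second deposited table holds a whole-number count per gene on GENCODE M4. No source used here gives the quantification tool, the counter or the strandedness.

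Expected counts were rounded to whole numbers. Rows that name no gene held 0.142% and 0.186% of reads and entered neither the library sizes nor the tests. The gene totals were 15076048 and 14635787 reads. Types, coordinates and GC content came from GENCODE M21, promoter sequences from RefSeq (GRCm38.p6; 2 Lck entries, whose starts lie 0 and 19 bases into Lck-202 and Lck-201), and exon sequences from the GENCODE M21 transcripts. TPM was used as deposited. Libraries were compared by an exact two-sided binomial test per gene with 10 or more summed reads, adjusted by Benjamini-Hochberg at 0.05, checked on simulated data. The simulated counts held counting error only, so that check cannot show how the test does with variation beyond it. Ratios to rare genes carry 95% intervals that cover counting error only, and a gene without reads was set at 3 reads per library. Alternatives used edgeR 4.0.16 (TMM; exact test), DESeq2 1.42.0 size factors, FPKM, pseudocounts of 0.1 and 10, other lengths, the whole-number table and, chosen after seeing the data, protein-coding transcripts only, coding length and GC bins; Python 3.11.15 and scipy 1.17.1 were used otherwise. All members could be named, every related gene except 1 that is not reported here, of each other list the 3 highest and the lowest, any list of 5 or fewer, and between libraries the 5 largest ratios in each direction among the calls. The list of members was proposed, and the other lists were chosen, with earlier results of these data known.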

Additional observations from a re-analysis of the deposited data

How the results depend on the processing

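The median level of the members moved with the unit: it was 66.0 with FPKM, 71.0 per longest protein-coding transcript, 50.8 with protein-coding transcripts only, and 165 and 180 with the whole-number counts per longest transcript and per coding length. The whole-number table also put 28 members at 100 or more in place of 16. That table reaches no more than 2.70 and 2.72 counts per coding base in any of 20715 genes, where the estimated reads reach 347 and 344, so it compresses abundant genes such as Lck, with 3226 and 3255 counts. The other counts of members by level, the count of related genes at least 10 times lower and the count of shared leading transcripts stayed within 1.5 times.

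The difference of medians between signal-promoting genes and brakes kept its sign in all 13 alternatives. Of these, keeping only members at or above 1 TPM could not change it, as all 43 passed. Several others rescale the same values. It was -0.29 per longest protein-coding transcript, -0.21 with protein-coding transcripts only, -0.87 and -0.86 with whole-number counts per longest transcript and per coding length, -0.72 with a pseudocount of 10, -0.060 with means, and -0.86 with Cd5 and Cd6 counted as brakes and Cd2 as signal-promoting. Without replicate 1 or 2 it was -0.79 and -0.84.

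Log2 ratios within 3 pairs reversed. Grap2 to Grb2 was -0.35 per longest protein-coding transcript. Rasa1 to Rasal3 was -0.047 without replicate 1 and 0.039 without replicate 2. Cd5 to Cd6 was -0.10 without replicate 1 and 0.16 without replicate 2, -0.56 per longest protein-coding transcript, -0.31 with whole-number counts and -0.58 by estimated reads. Per longest protein-coding transcript, the unlogged ratio moved by over 1.5 times in further pairs whose log2 ratio kept its sign. Their log2 ratios were 0.18 for Nck1 to Nck2, 3.36 for Vav1 to Vav3, 1.59 for Ubash3a to Ubash3b and 2.57 for Dgka to Dgkz. For Lat to Lat2 it was 8.45, for Rasgrp1 to Rasgrp3 9.75 and for Grap2 to Grap -2.93.

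Between libraries, edgeR's exact test called 0 members higher in library 2 and 0 higher in library 1, with 0 of 43 at an unadjusted p under 0.05. The whole-number counts, lower in total than the estimated reads, called 5 higher in library 2 (Zap70, Prkcq, Ptpn6, Sla2 and Cd6) and 0 higher in library 1. By the exact binomial test on them, 1 member higher in library 1 had an unadjusted p under 0.05, and 9.95% of genes were called in all. DESeq2 size factors called 4 higher in library 1. Depth limits the rare relatives and the transcripts of Tec and Vav3. With 1 biological replicate, nothing here measures spread between animals.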
